A study of Bos taurus with 12 samples.

Results

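The 6 genes GZMB, GZMM, PRF1, KLRF1, KLRD1 and NKG7 act in killing by natural killer cells and cytotoxic T cells, and they held 13 of the 216,990 cytosines in the authors' deposited table. A site was counted for a gene when the table placed it outside distal intergenic DNA and its annotation text, or its gene symbol where the text held no gene, gave that gene. The table was made from whole blood DNA of 12 dairy cows of 1 herd, aged 3 to 8 years and kept alike. The 6 subfertile cows were culled within a year of sampling for reproductive problems not yet recognised when blood was drawn, and the 6 fertile cows were still in the herd without such problems. DNA from 1 mL of blood was converted enzymatically and sequenced, and the table gives how many percent of calls were methylated at each cytosine of each cow, in coordinates of build ARS-UCD1.2. This chemistry does not separate hydroxymethylated from methylated cytosines, and how many reads lie behind a level is not known. The table's columns of subfertile cows begin with F and those of fertile cows with R. What F and R stand for is not stated, and if they were meant against the sample labels every direction here would turn.

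Natural killer cells and cytotoxic T cells kill by releasing granules onto a target cell. Perforin opens the target membrane, and granzymes, which are serine proteases, enter and cleave proteins that start cell death. Receptors of the killer cell lectin-like family on the cell surface tune this release, some inhibiting and others activating it. Methylation of the DNA near such genes is commonly low in the cells that express them and high in other blood cells, so a level in whole blood averages over many cell types. Fewer cells of a type and a different level within that type cannot be told apart in such DNA.

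The table holds only sites that the authors had picked for a group difference above 25 percentage points, and no deposited q-value of that difference exceeds 0.01. Every group difference here is therefore a description and none is tested as a finding. The shares of all sites and genes given next are over sites picked in this way. Limma, run on log ratios of the percent values over all 216,990 sites, called 0 of the 13 sites and 0% of all sites (adjusted p up to 0.05). At an unadjusted p under 0.05 it gave 8 of the 13 and 52.7% of all sites. On gene means it called 0 of the 6 genes, against 0.121% of 9,909 genes, and gave 5 of the 6 and 40.6% of all genes at an unadjusted p under 0.05. Values are given as mean ± SD over cows in percent methylated, with n = 6 per group unless stated.

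At 11 of the 13 sites the subfertile mean was lower and at 2 it was higher by the authors' deposited difference, while 49.4% of all sites outside distal intergenic DNA and 47.9% of all deposited sites were lower. The 13 are not independent: with both strands of a CpG counted once, 8 of 10 were lower. The 5 sites of GZMB also lie in 1 longer run of lower sites, described below. GZMB held 5 of the 13, GZMM, KLRD1 and PRF1 2 each, and KLRF1 and NKG7 1 each. The granzyme genes and KLRF1 were lower, NKG7 was higher, and the 2 sites of KLRD1 pointed in opposite directions. The 2 sites listed under PRF1 lie in another gene, as given below, and without them 9 of 11 sites were lower. At 1 of the 13 sites, that of NKG7, no fertile cow overlapped a subfertile cow, against 2.93% of sites outside distal intergenic DNA and 3.1% of all deposited sites. Cows reached from under 10% to over 80% at 4 of the 13 sites, against 69.7% of sites outside distal intergenic DNA. These 4 were both KLRD1 sites, the NKG7 site and 1 strand of the CpG listed under PRF1. Whether sequence differences between cows enter such levels was not tested. The SD among subfertile cows exceeded that among fertile cows at 10 of the 13 sites, and the share over all sites was not counted. All GZMB sites are among them. The subfertile SD of the mean over the GZMB sites was 21.1 points with subfertile cow 2 and 3.88 points without it. Single sites still varied without that cow: at 34,737,350 the other 5 subfertile cows ran from 26.7 to 63.6%. The median SD over the 13 sites was 23.4 points in subfertile and 13.1 points in fertile cows, against 25.9 and 26.5 points over all sites outside distal intergenic DNA.

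**Figure D1:**
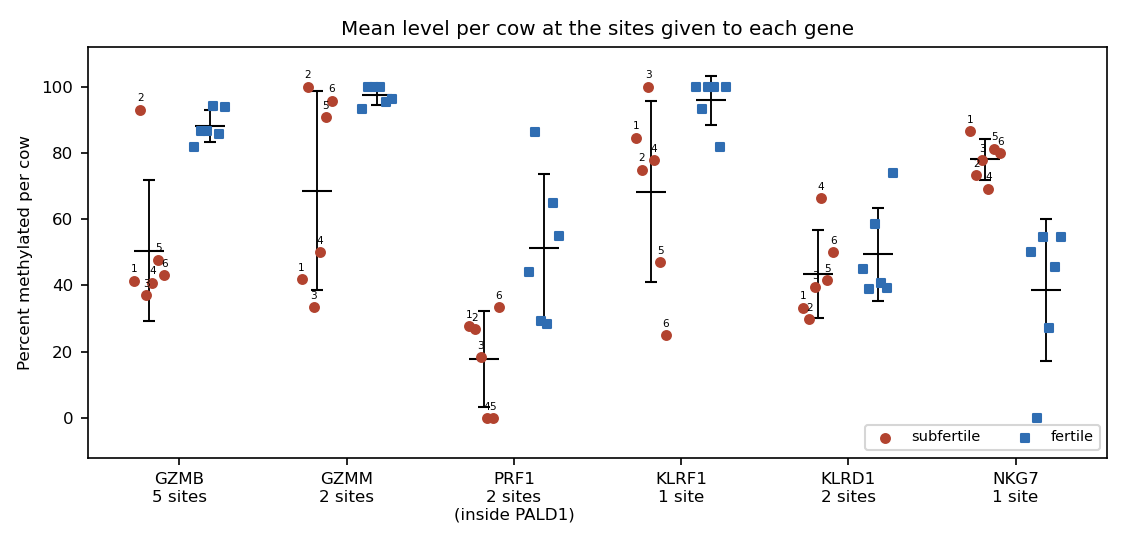
Percent methylated per cow, averaged over the sites given to each gene, for the 6 subfertile (circles, numbered by cow) and 6 fertile cows (squares); horizontal lines and bars are mean and SD over cows. Subfertile cow 2 stands at 93.1% for GZMB, beside the fertile cows, while the other 5 lie between 37.1% and 47.8%.

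GZMB encodes granzyme B, the granzyme best known for starting caspase-driven death of target cells. Averaged over its 5 promoter sites, its level ran from 37.1% over a median of 42.2% to 93.1% in subfertile cows, and from 81.8% over a median of 86.7% to 94.2% in fertile cows. Of the 6 subfertile cows, 5 lay below every fertile cow, and the sixth, cow 2, lay among the fertile ones. The means were 50.5 ± 21.1% in subfertile and 88.2 ± 4.91% in fertile cows, a difference of -37.6 points. Without subfertile cow 2 the difference was -46.1 points, all 5 sites separated the groups, and 4.88% of sites outside distal intergenic DNA did so too. With it, none of the 5 sites separated them. That cow was singled out after its values were seen. Without it the limma fit on gene means called GZMB among 24 genes (0.241%), while none of the 6 genes was called in the 11 fits that left out another cow. In a fit on promoter sites alone, with at least 3 per gene, limma called GZMB (adjusted p = 0.0427) and 15.7% of 1,292 genes. GZMB was called in 4 of 12 such fits that left out 1 cow, and the genes called then ran from 4, without fertile cow 4, to 182.

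The 5 GZMB sites spanned the promoter from 2,961 bases before the start of transcription to 344 bases past it, on chromosome 21. The outermost, at position 34,737,350, averaged 56.4 ± 25.5% in subfertile and 93.9 ± 5.43% in fertile cows. The CpG at 34,738,950, 1,361 bases before the start, averaged 57.6 ± 23.0% in subfertile and 89.0 ± 8.09% in fertile cows on the plus strand. Its minus strand had 42.5 ± 21.8% and 88.7 ± 11.7% in the same order, the largest deposited difference among the 13 sites (-48.2 points in the authors' deposited table). The CpG at 34,740,654 lies inside the gene, 343 bases past the start, and averaged 48.3 ± 23.0% in subfertile and 84.0 ± 13.2% in fertile cows on the plus strand. Its minus strand had 48.9 ± 26.2% (n = 5) in subfertile and 85.3 ± 13.1% in fertile cows. Across these sites the values of the other 5 subfertile cows ran from 22.2 to 66.7%, those of subfertile cow 2 from 81.8 to 100% and those of fertile cows from 62.5 to 100%. The strands of 1 CpG differed by 12.96 points in a cow on average at 34,738,950 and by 11.9 points at 34,740,654, against a median of 8.62 points over 47,992 deposited pairs. The distance limit of 3 kb set which sites counted: just outside it, the CpG 3,298 bases before the start averaged 31.2 ± 38.4% in subfertile and 69.6 ± 21.1% in fertile cows on the plus strand.

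**Figure D2:**
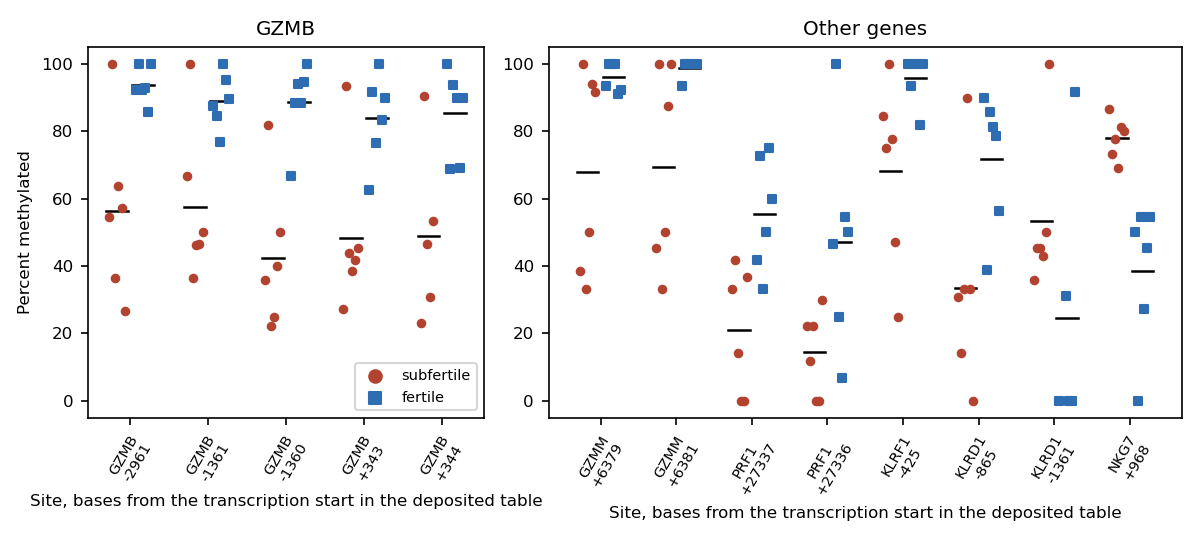
Percent methylated at each of the 13 sites in the 6 subfertile (circles) and 6 fertile cows (squares), with the mean of each group as a line; labels give bases from the start of transcription in the deposited table. At the 5 GZMB sites subfertile cow 2 lies at 81.8% or above and the other 5 subfertile cows at 66.7% or below.

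The GZMB sites were part of a longer stretch. All 69 deposited sites from 34,655,547 to 34,923,124 on chromosome 21, over 268 kb, had a lower subfertile mean by the authors' deposited difference. Of all deposited sites, 4.29% lie in a run of 1 direction with at least as many sites. The 64 sites of the run outside GZMB's own averaged 41.8 ± 20.4% in subfertile and 80.1 ± 10.4% in fertile cows. Over them subfertile cow 2 averaged 80%, the other 5 subfertile cows between 25.5 and 44.1%, and the fertile cows between 64.1 and 91.4%. Subfertile cow 2 was lower beside the gene than in it, but lay below every fertile cow at 2 of the 64 sites, against 41 to 53 sites for each of the other 5. Groups did not overlap at 2 of the 64 sites, a share like the 3.1% of all deposited sites. Without subfertile cow 2, left out after its values were seen, they did not overlap at 37 of the 64, against 5.12% of all deposited sites. Run and bounds were chosen after the values were seen, and its sites lie close together in the same cows.

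The stretch covers relatives of GZMB. Sites nearest to LOC100139881, which the table names mast cell protease 2, averaged 43.9 ± 17.9% in subfertile and 86.0 ± 2.27% in fertile cows over 5 sites. Those nearest to LOC617313, named granzyme H, averaged 47.4 ± 23.0% in subfertile and 90.7 ± 3.72% in fertile cows over 5 sites. Those nearest to LOC505658, named cathepsin G, averaged 28.5 ± 17.1% in subfertile and 63.2 ± 25.3% in fertile cows over 11 sites. LOC508646, named granzyme B like the gene itself, had 37.1 ± 24.8% in subfertile and 71.7 ± 22% in fertile cows over 6 sites. The run was not limited to proteases of killer and mast cells: LOXL1, a lysyl oxidase of elastic fibres, held 17 of its sites, with 44.5 ± 25.3% in subfertile and 84.5 ± 11.6% in fertile cows. These serine protease genes form a family of similar copies, so reads may be misplaced among them, which was not tested.

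**Figure D3:**
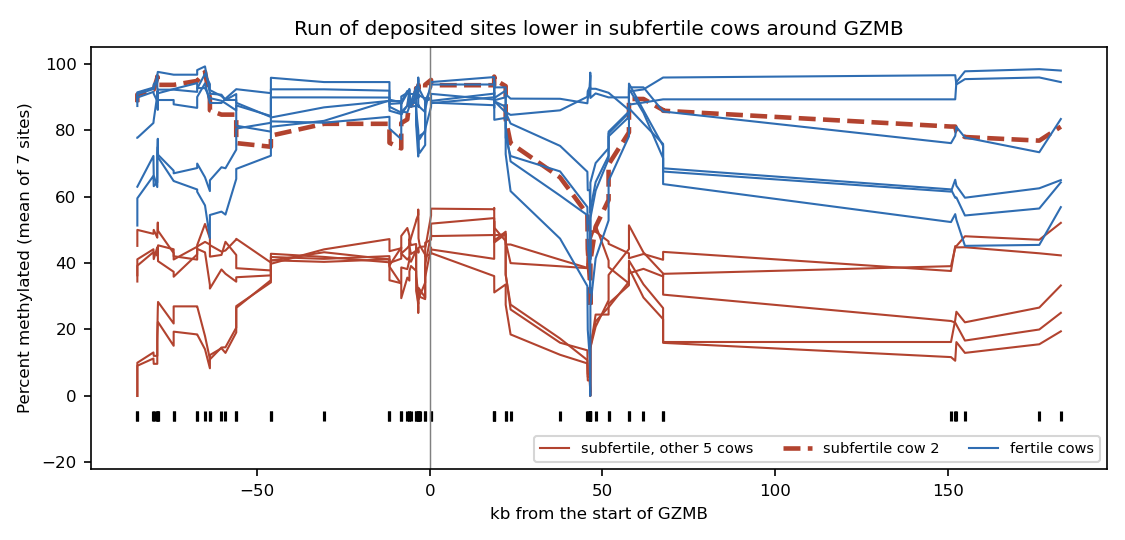
Level per cow along the run of 69 deposited sites around GZMB, as the mean of 7 neighbouring sites against distance in kb from the gene's start, for subfertile (red) and fertile cows (blue); ticks mark the sites. Subfertile cow 2 (dashed) averages 80% outside GZMB's own sites, within the range of the fertile cows' averages, and dips with other cows near 46 kb.

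GZMM encodes granzyme M, a granzyme prominent in natural killer cells. Its 2 sites lie 69 and 71 bases past the end of the gene on chromosome 7, at 43,188,355 and 43,188,357. Over both, the level ran from 33.3% over a median of 70.4% to 100% in subfertile cows and from 93.3% over a median of 98.1% to 100% in fertile cows. Subfertile cows 1, 3 and 4 had 42.0, 33.3 and 50%, while cows 2, 5 and 6 had 100, 90.8 and 95.8%, so the subfertile cows split and cows 2 and 6 lay within the fertile range. The means were 68.7 ± 30.1% in subfertile and 97.5 ± 2.90% in fertile cows. Both CpGs were also deposited on the opposite strand, where the table calls the same place distal intergenic, and there they averaged 67.5 ± 28.8% in subfertile and 94.7 ± 8.29% in fertile cows, and 70.9 ± 31.6% in subfertile cows against 100% in every fertile cow. Within 100 kb of GZMM, the 9 other deposited sites divided into 4 lower and 5 higher. Among those 4 lower are the 2 opposite-strand sites of the same CpGs.

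PRF1 encodes perforin, the pore-forming protein of the granules. No deposited site lay in the gene, within 3 kb before its start or within 300 bases past its end. The 2 sites listed under it, at 26,760,556 and 26,760,557 on chromosome 28, are the strands of 1 CpG called 3′ untranslated region without a gene being given. They lie 27,337 and 27,336 bases from the start of PRF1 and inside the deposited interval of PALD1, which ends at 26,762,598. Their means, 17.7 ± 14.5% in subfertile and 51.3 ± 22.3% in fertile cows, are therefore values of a CpG within PALD1 and not of the perforin gene. The nearest deposited sites before the start of PRF1, 4,317, 9,566 and 10,910 bases away, had higher subfertile means. Averaged over these 3, subfertile cows 1 to 6 had 41.7, 97.2, 100, 42.5, 0 and 93.3%, while fertile cows 1 to 6 had 49.8, 0, 46.6, 31.5, 0 and 48.2%. Both groups held a cow at 0, and the groups overlapped. Fertile cows 2 and 5 and subfertile cow 5 were listed at 0 at all 3 sites.

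NKG7 encodes a granule membrane protein needed for full release of cytotoxic granules. Its single site, at 57,440,331 on chromosome 18, lies inside the gene, 968 bases past the start of transcription. It ran from 69.2% over a median of 78.9% to 86.7% in subfertile cows and from 0 over a median of 47.7% to 54.5% in fertile cows, so the groups did not overlap. The means were 78.0 ± 6.14% in subfertile and 38.6 ± 21.5% in fertile cows. It was the only one of the 6 genes with a higher mean. It belonged to a run of 3 higher sites spanning little more than 1 kb. Of the 64 other deposited sites within 100 kb, 45 were lower and 19 higher in subfertile cows, so its direction was the less common one there.

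**Figure D4:**
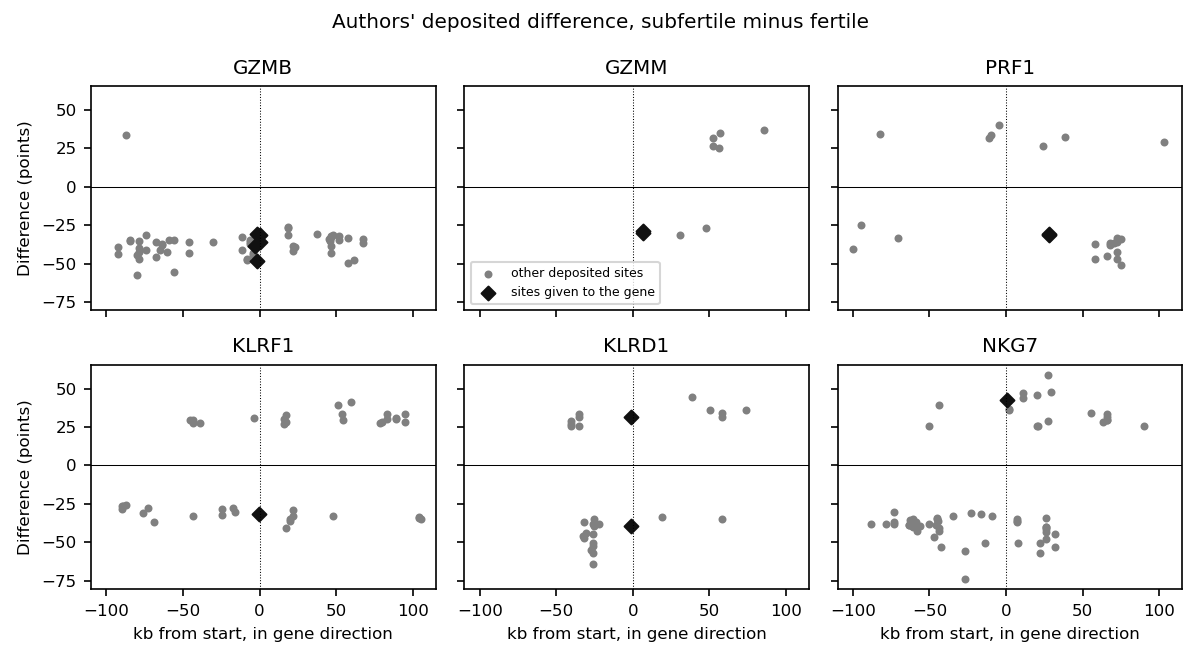
Authors' deposited difference, subfertile minus fertile, at all deposited sites within 100 kb of each gene, against distance in kb from its start in the direction of the gene; diamonds are the sites given to the gene. Around GZMB 60 of 61 other sites were lower, while both directions occur around the other 5 genes. Values between -25 and 25 points are missing because the table holds none.

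The receptor genes KLRD1 and KLRF1 lie 568 kb apart on chromosome 5. KLRF1 encodes NKp80, an activating receptor of natural killer cells. Its single promoter site, at 100,238,761 and 425 bases before the start, ran from 25% over a median of 76.4% to 100% in subfertile cows and from 81.8% over a median of 100% to 100% in fertile cows. Of the 6 subfertile cows, 4 lay below every fertile cow, cows 5 and 6 lowest with 47.1 and 25%, and cow 3 stood at 100%. The means were 68.2 ± 27.3% in subfertile and 95.9 ± 7.38% in fertile cows. The 12 distal intergenic sites nearest to KLRF1 divided into 7 lower and 5 higher. At the 5 higher ones fertile cow 1 was listed at 0, fertile cow 4 lay between 47.6 and 66.7%, and no subfertile cow was below 83.3%. At 6 of the 7 lower ones subfertile cow 5 was listed at 0 and fertile cow 4 lay at 87.5% or above. At the promoter site fertile cow 1 had 100%, unlike at the 5 higher sites, which point in the opposite direction. At the 6 lower ones fertile cow 1 lay at 78.6% or above. Subfertile cow 5, at 0 there, had 47.1% at the promoter site, the lowest value but that of cow 6.

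KLRD1 encodes CD94, which pairs with NKG2 chains to form inhibitory or activating receptors. The site 865 bases before its start, at 99,661,250, ran from 0 over a median of 32.1% to 90% in subfertile cows and from 38.9% over a median of 79.9% to 90% in fertile cows. Its means were 33.6 ± 30.6% in subfertile and 71.8 ± 19.9% in fertile cows. Below every fertile cow lay 5 subfertile cows, and cow 4 reached the highest fertile value. At 99,661,746, 1,361 bases before the start, the means were 53.2 ± 23.4% in subfertile and 24.6 ± 39.9% (n = 5) in fertile cows. There fertile cows 1, 4 and 5 were listed at 0 while fertile cow 6 had 91.7%. Averaged over both sites the gene had 43.4 ± 13.3% in subfertile and 49.4 ± 14.1% in fertile cows, a difference of -5.94 points and smaller than the spread among cows of either group. A gene mean therefore conceals opposite values less than 1 kb apart here.

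The subfertile cows with low values were not the same from gene to gene. Cow 2 was as high as fertile cows at GZMB and GZMM but below all of them at KLRF1, with 75%. Cow 6 was the lowest at KLRF1 with 25% and had 95.8% at GZMM. Cow 3 was the lowest at GZMB and GZMM and the highest at KLRF1, with 100%. Cows 4 and 5 were below every fertile cow at all 3 of these genes. At GZMM cow 5 was only just so, with 90.8% against 93.3% in the lowest fertile cow. At the GZMM site at 43,188,355 it had 94.1%, within the fertile range. The other 4 subfertile cows were below every fertile cow at 1 or 2 of the 3 genes.

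Levels most like those of each gene were sought among 4,780 or more genes with at least 3 sites, by the mean absolute difference over the 12 cows. For GZMB these were CLK3 and EDC3, at 5.38 and 7.11 points against a median of 28.6 points over all genes compared. CLK3, a kinase of splicing factors, and EDC3, a factor of mRNA decapping, lie on the same chromosome as GZMB, 0.675 and 0.702 Mb away. For GZMM they were MGC137030, 0.698 Mb away on the same chromosome, at 3.47 points, and XKR8 on chromosome 2, a phospholipid scramblase gene, at 4.05 points. For KLRF1 they were CACNB4 at 8.21 and PTPN2 at 8.76 points, for KLRD1 TTLL8 at 7.55 and MEGF10 at 8.02 points, and for NKG7 BANK1 at 7.87 and IFN-tau-c1 at 10.3 points. For the CpG listed under PRF1 they were SIN3B at 12.2 and ITIH2 at 12.7 points. The group difference that selected all sites enters this measure.

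Across the wider cytotoxic pathway the differences lay on both sides. Of 12 granule protein genes, 7 had a site in the features used, 3 higher and 4 lower in subfertile cows by their mean, with a median difference of -24.0 points. That sign rests on the CpG listed under PRF1: without it, a choice made after the values were seen, 3 genes were higher and 3 lower, with a median of 5.09 points. Of all 8,569 genes with a symbol 4,108 were lower, and the median was 1.93 points. LAMP1, a membrane protein of lysosomes and granules, had 61.3 ± 20.9% in subfertile and 27.2 ± 22.7% in fertile cows over 2 sites. GZMK, named after its values were seen, was listed at 0 in every subfertile cow, against 24.0 ± 41.2% in fertile cows, at 1 site. That fertile mean came from fertile cows 1 and 6, with 43.8 and 100%, while all other fertile cows were also at 0. CTSC, likewise named afterwards and with 1 site, was higher, with 65.5 ± 39.1% in subfertile and 27.6 ± 33.8% (n = 5) in fertile cows. Of 18 receptor genes 9 had a site, 5 higher and 4 lower, with a median of 13.1 points. KLRF2, which encodes a relative of NKp80 and has its nearest site 179 kb from that of KLRF1, had 40.1 ± 25.8% in subfertile and 78.3 ± 21.4% in fertile cows, with all 8 sites lower. KLRC1, which encodes the NKG2A partner of CD94, had 69.5 ± 30.3% in subfertile and 32.8 ± 22.8% in fertile cows, with all 4 sites higher. KLRK1, the gene of the activating receptor NKG2D, had 69.7 ± 20.6% in subfertile and 56.6 ± 23.1% in fertile cows, and NCR1, the gene of NKp46, had 72.0 ± 13.8% in subfertile and 56.1 ± 21.9% in fertile cows. KLRK1 and NCR1 each averaged 3 higher sites and 1 lower. The partner gene KLRD1 had 1 site higher and 1 lower, as given above.

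Of 11 adaptor and signalling genes 5 had a site, 1 higher and 4 lower, with a median of -27.5 points. SYK, a kinase downstream of activating receptors, had 67.6 ± 28.8% in subfertile and 94.3 ± 2.26% in fertile cows over 7 sites. CD247, the zeta chain, had 69.5 ± 30.4% in subfertile and 97.1 ± 2.68% in fertile cows over 5 sites. PLCG2, a phospholipase, had 34.0 ± 14.6% in subfertile and 62.9 ± 34.8% in fertile cows over 5 sites. ZAP70, a related kinase, had 83.0 ± 22.4% in subfertile and 56.4 ± 35% in fertile cows, with all 5 sites higher. Of 6 exocytosis genes 2 had a site: STX11, with 69.3 ± 20.8% in subfertile and 56.8 ± 30.3% in fertile cows, and UNC13D, with 79.9 ± 9.34% and 69.6 ± 9.77% in the same order. STX11 averaged 3 higher sites and 1 lower, UNC13D 2 higher and 1 lower. Of 9 transcription factor genes only ETS1 had a site, with 30.7 ± 7.06% in subfertile and 47.6 ± 21.4% in fertile cows over 10 sites. Of these, 2 were higher and 8 lower.

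Of 8 cytokine receptor and interleukin genes 6 had a site, 4 higher and 2 lower, with a median of 25.4 points. IL21R had 38.6 ± 16.6% in subfertile and 2.05 ± 1.36% in fertile cows, with all 19 sites higher. IL18RAP, a chain of the interleukin-18 receptor, had 59.8 ± 16.2% in subfertile and 19.6 ± 22.8% in fertile cows over 3 sites. IL12RB1 had 96.2 ± 2.2% in subfertile and 72.2 ± 31.6% in fertile cows over 2 sites. IL15RA had 19.3 ± 21.8% in subfertile and 50.9 ± 32.0% in fertile cows over 4 sites, 1 of them more than 3 kb from the gene. Of 8 effector cytokine and death ligand genes 2 had a site. TNFSF10, the gene of the death ligand TRAIL, had 74.4 ± 25.9% in subfertile and 38.6 ± 34.7% in fertile cows over 9 sites, and CCL3 had 39.9 ± 44.5% in subfertile and 66.6 ± 22.5% in fertile cows at 1 site. In the limma fit on gene means 0 of 49 list genes tested, cell markers included, were called.

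**Figure D5:**
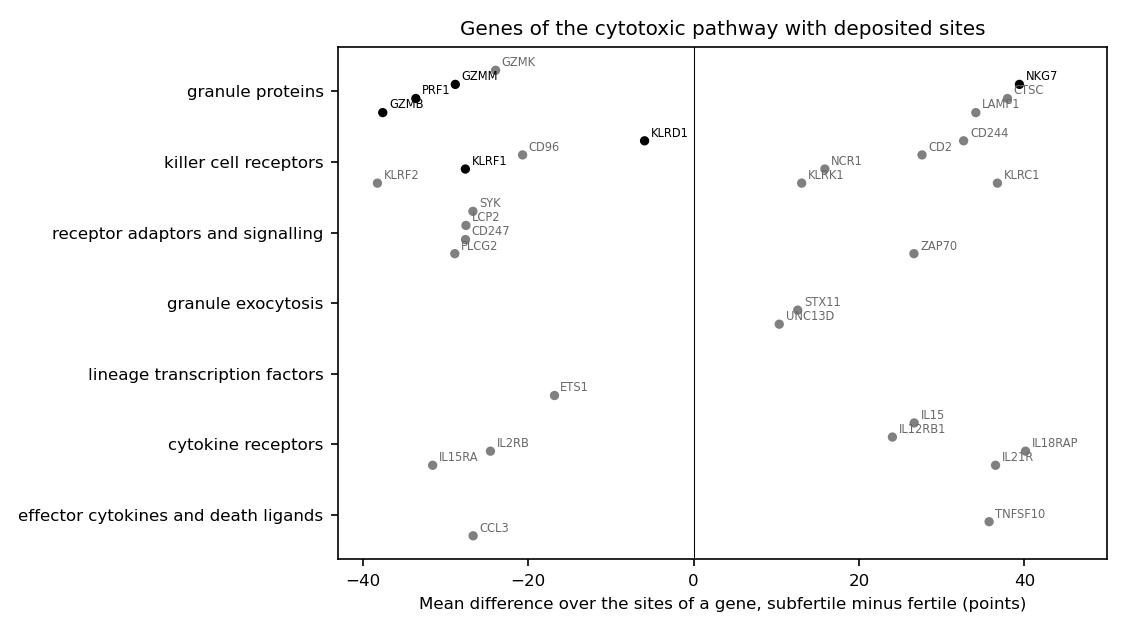
Mean difference over the sites of each gene, subfertile minus fertile in percentage points, for the cytotoxic pathway genes that had a site in the features used, grouped by role; black points are the 6 genes of this account. Granule and receptor genes lie on both sides of 0, from -38.3 points for KLRF2 to 39.4 points for NKG7, and the point of PRF1 comes from a CpG inside PALD1.

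Markers of other blood cells also lay on both sides. Of 15 T cell markers 6 had a site, 3 higher and 3 lower, with a median of 6.04 points. CD5 had 46.3 ± 21.7% in subfertile and 71.0 ± 20.1% in fertile cows, and BCL11B, on the same chromosome as GZMB, had 63.3 ± 26.8% and 77.5 ± 14.3% in the same order. CD5 averaged 1 higher site and 4 lower, BCL11B 1 higher and 3 lower. CD3E had 97.5 ± 3.54% in subfertile and 71.2 ± 25.2% in fertile cows, and CD6 had 47.1 ± 10.8% and 19.9 ± 16.6% in the same order. Of 11 B cell markers 7 had a site, 5 higher and 2 lower, with a median of 20.9 points, among them BANK1 with 77.0 ± 11.0% in subfertile and 45.4 ± 13.1% in fertile cows over 121 sites, and PAX5 with 75.8 ± 8.35% and 54.9 ± 25.7% in the same order over 12 sites. Lower sites numbered 20 for BANK1 and 2 for PAX5. CD22 had 49.9 ± 16.5% in subfertile and 49.9 ± 14% in fertile cows, and EBF1 46.1 ± 9.80% and 46.4 ± 37.6% in the same order, each from 1 higher and 1 lower site. Of 9 monocyte markers 3 had a site, 1 higher and 2 lower, with a median of -22.3 points. MSR1 had 87.9 ± 5.60% in subfertile and 54.3 ± 21.2% in fertile cows over 12 sites. CD163 had 3.57 ± 8.75% in subfertile and 25.9 ± 31.3% in fertile cows, and MARCO 61.9 ± 36.5% and 88.2 ± 16.3% in the same order. Of 11 neutrophil markers 3 had a site, 2 higher and 1 lower, with a median of 24.7 points, and LTF had 86.9 ± 1.40% in subfertile and 51.5 ± 31.7% in fertile cows over 46 sites. Of these 46, 43 were higher and 3 lower. CXCR2 had 97.8 ± 4.97% (n = 5) in subfertile and 73.0 ± 27.4% in fertile cows, and MPO 51.7 ± 27.1% and 87.3 ± 6.84% in the same order. Of 9 platelet and erythroid markers only ITGA2B had one, with 17 ± 26.7% in subfertile and 47.8 ± 40.1% in fertile cows. The part that the mix of blood cells plays in the values of the 6 genes was not tested.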

How the data were processed

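Whole blood DNA of 12 cows was analysed. ChIPseeker 1.32.1, Bismark, DRAGEN, fastp 0.23.1 and build ARS-UCD1.2 are listed, without their order, per the submitters' processing notes. Per the file headers, the deposited table holds the percent methylated per cytosine and cow, the authors' means, a p-value, a q-value and a signed difference between groups, here treated as a score in points. For the authors' test and read minimum the sources used here give nothing. Each of the 12 cow columns matched a sample title by number, and replicate numbers follow accession order. Depth is unknown, so no interval for a single value is given and the planned logistic model on reads was not possible. Limma 3.58.1 in R 4.3.3 was run instead on log2 of (percent + 5)/(100 - percent + 5), with Benjamini-Hochberg adjustment over all sites or all genes. It was tested on simulated sites with shifts larger than those estimated for the 6 genes. Power to call differences of their size was not tested. Gene means averaged all sites outside distal intergenic DNA. Counts, means and figures were made with Python 3.11.15. The 6 genes and the lists were chosen with earlier results of these data known. Named were the 6 genes, up to 4 genes per list with the most sites, and the 2 genes with the most similar levels. Exceptions are marked in the text. Nothing says that the samples were processed apart, so p-values measure the spread between these 12 samples.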

Additional observations from a re-analysis of the deposited data

Results flagged for a closer look

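Single cows stood apart from their group, by a gap to the next cow that was large against the group's range, in 7 of 34 groups examined. By chance this rule flags about 1 group in 20 only where values are normally distributed. Percents are bounded and can be tied, as among the fertile cows at 100% at the GZMM site below. The chance rate for these groups is therefore not known, and the 7 flags are a description. Sites of 1 gene also share their cows. At GZMB, subfertile cow 2 averaged 93.1% and the next subfertile cow 47.8%. At the site 343 bases past the start of GZMB it had 93.3%, and the next subfertile cow 45.5%. At the minus strand 1,360 bases before the start, fertile cow 1 had 66.7% and the next fertile cow 88.2%. At the GZMM site at 43,188,357, fertile cow 1 had 93.3% and every other fertile cow with a value 100%. At the KLRF1 site, fertile cow 5 had 81.8% and the next fertile cow 93.3%. At KLRD1, subfertile cow 4 had 90% at 99,661,250, the next subfertile cow 33.3%, and subfertile cow 6 had 100% at 99,661,746, the next subfertile cow 50%.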

How the results depend on the processing

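Of 157 alternative values, 136 stayed near the reported one, 21 moved and 0 turned direction. Only the mean differences of the genes could turn, since counts were marked as near or moved alone. The sites had been picked for a group difference, so a turn after a small change was unlikely from the start. The mean differences of GZMB, GZMM, KLRF1 and NKG7 stayed within the spread among cows under all alternatives run. KLRD1 had -38.2 points with only its site measured in all 12 cows, since the opposite site then drops out, and PRF1 had -11.1 points with sites given to the nearest gene, which adds an intron site of PALD1. Placing sites by position, an alternative chosen after seeing the data, left PRF1 with none. Leaving out 1 cow at a time gave -46.1 to -34.9 points for GZMB, -35.1 to -21.8 for GZMM, -38.2 to -26.6 for PRF1, -34.0 to -19.0 for KLRF1, -10.5 to -1.02 for KLRD1 and 31.7 to 42.6 for NKG7. The 11 lower of 13 sites became 8 of 10 with both strands of a CpG counted once. They became 4 of 5 at a deposited difference of at least 35 points. With distal intergenic sites they became 30 of 41, while 47.9% of all deposited sites were lower. The share of lower sites over all deposited sites was not worked out for the other 2 settings. Sites with separate groups ran from 1 to 6 without 1 cow, while their share over sites outside distal intergenic DNA ran from 4.38 to 4.94%, against 2.93% with all cows. They were 6 without subfertile cow 2, and 2 without subfertile cow 4, fertile cow 1 or fertile cow 6. Limma called 1,039 sites on plain percent values, none of them among the 13, and 0 to 0 without 1 cow. It called 12 genes as reported, 21 with 1 point added, 5 on plain percent values, 191 with at least 3 sites per gene and 5 to 66 without 1 cow. These were 5 genes without fertile cow 1, 20 without fertile cow 2, 32 without fertile cow 3, 28 without fertile cow 5, 20 without subfertile cow 1, 24 without subfertile cow 2 and 66 without subfertile cow 4. With promoter sites alone it called 203 of 1,292 genes (15.7%), GZMB among them. Without sites spanning under 10% to over 80% it called 2,411 of 5,697 genes, 4 of the 4 members tested among them (1 through the CpG in PALD1), and that filter removes sites by their spread. No paired analysis was possible because the labels give the cows no replicate numbers shared between groups.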

Other observations

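The misplaced CpG listed under PRF1 was not an isolated case. Of the 935 deposited sites called 3′ untranslated region, 420 (44.9%) lay more than 3 kb outside the interval of the gene named beside them, and of the 212 called downstream 78 (36.8%) did. Of the 20 called 5′ untranslated region 4 (20%) did. For such sites a level cannot be read as that of the gene named, as for perforin.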
